A study of Mus musculus with 12 samples.

Results

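MiT/TFE transcription factors, folliculin with its partner proteins and the Rag GTPases form a regulatory circuit at the surface of the lysosome. Its members were taken as the rows of the deposited tables named Tfeb, Tfe3, Mitf, Flcn, Fnip1, Fnip2, Rraga, Rragb, Rragc or Rragd. All 10 were found among the 25239 genes of the expression table, 9 of them with a level above 0, and 1 of them, Fnip1, had a peak in the m6A table. The data came from HT22 cells, a wild-type mouse hippocampal cell line, that had received 800 μM mesaconitine (MA, a diterpenoid alkaloid of Aconitum) for 72 h, or 0 μM in the controls. Each of the 2 conditions is represented by 3 libraries of input RNA and 3 libraries of RNA immunoprecipitated (IP) with an antibody against m6A, which makes 12 libraries in all. The study used MeRIP-seq, the sequencing of such IP and input pairs, to ask whether m6A takes part in the neurotoxicity of MA. All libraries derive from a single cell line, and the sources used here do not say whether the replicates were separate cultures.

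When amino acids are plentiful, heterodimers of RagA or RagB with RagC or RagD recruit mTORC1 to the lysosome. The Rag dimer also presents TFEB, TFE3 and MITF to mTORC1, whose phosphorylation keeps these factors in the cytoplasm. Folliculin, in complex with FNIP1 or FNIP2, is the GTPase-activating protein of RagC and RagD and is needed for that step. Dephosphorylated MiT/TFE factors enter the nucleus and switch on genes of lysosomes and autophagy, and Flcn, Fnip1, Fnip2, Rragc and Rragd are known targets in several cell types.

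The expression table gives 1 usable value per gene, the authors' mean normalized count over libraries of both conditions, and holds no value of a single library. MA-treated and control cells are merged in that mean, so it has no error and tells nothing of a change with MA treatment. The other columns of that table hold the authors' own comparison of the groups, which was not used here. Changes in mRNA after MA treatment were therefore not analysed here, and no test between groups could be made for any member's mRNA. The m6A table gives 1 count of reads per peak for the 3 libraries of each group. It was taken here as their sum, which the sources do not state, so intervals below cover counting error only. The study describes more peaks than the 2643 of this table, and how these were chosen is not given in the sources used here. A gene without a peak in the table may therefore still carry m6A, and shares of genes or peaks below refer to the listed peaks.

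Beyond the members, the depth of the libraries was not given, but in the controls the 2643 peaks together held 288659 input and 267002 IP reads. After MA treatment they held 214778 and 359889. The median level of the 16178 genes above 0 was 528 normalized counts. Several neuronal markers were low or at 0. Map2, Snap25 and Gria2 were listed at 0 and Rbfox3 stood at 1.15 normalized counts, whereas Tubb3 and Eno2 reached 473 and 534. All 5 mesenchymal markers were above 0, from 862 normalized counts for Acta2 to 286199 for Fn1, and the part of this in the values below was not tested. Summed levels were 1140 normalized counts for the 3 astrocyte markers, nearly all from Slc1a3, 6.64 for the 3 oligodendrocyte and 66.6 for the 3 microglial markers. Of the 4 melanocyte markers, listed because MITF governs that lineage, only Pmel was above 0, at 3.54.

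Among the MiT/TFE factors, the transcript of Tfe3 was the most abundant. TFE3 is, like TFEB, a driver of lysosomal genes, and its mean level was 2030 normalized counts, at percentile 73.1 of the genes above 0. Tfeb had a mean of 344 normalized counts, at percentile 44.9. Mitf, best known for its role in melanocytes, had a mean of 565 normalized counts, at percentile 51.0. The fourth gene of this family, Tfec, was listed at 0. Per kilobase of the longest coding transcript, which allows levels of different genes to be compared, Tfe3 stood at 599 normalized counts, Tfeb at 147 and Mitf at 116. The level of Tfe3 per kilobase was thus 4.07 times that of Tfeb and 5.17 times that of Mitf. Percentiles of mean counts, here and below, are not corrected for length. Among the 14020 genes above 0 with a coding transcript, the percentiles per kilobase were 68.7 for Tfe3, 40.6 for Tfeb and 37.5 for Mitf. The lead of Tfe3 over Tfeb rests on the transcript chosen, since with the median length of the 12 coding transcripts of Tfeb, many of them short, the ratio was 1.06 in place of 4.07. Which of Tfeb and Mitf was higher also depended on this choice.

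Folliculin and both of its partners were detected. Flcn, the tumour suppressor gene of the complex, had a mean level of 1351 normalized counts, at percentile 65.2 of the genes above 0. Fnip1 reached 6594 normalized counts, at percentile 91.8. Its paralog Fnip2 had 3325 normalized counts, at percentile 82.2. Per kilobase, the levels were 393 normalized counts for Flcn, 1054 for Fnip1 and 456 for Fnip2. Fnip1 was thus 2.31 times as abundant as Fnip2 per kilobase, a ratio that lay between 1.94 and 2.44 with the other lengths tried. Levels of both partners per kilobase were higher than that of Flcn in this table. The percentiles per kilobase were 59.3 for Flcn, 80.9 for Fnip1 and 62.6 for Fnip2.

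Of the Rag GTPases, 1 gene of each pair made up nearly all of the signal. Rraga and Rragb encode RagA and RagB, of which each dimer holds 1. Rraga, a gene of a single exon, had a mean of 3434 normalized counts, and Rragb was listed at 0. Rragc and Rragd encode their partners in the dimer. Rragc had a mean of 6931 normalized counts, at percentile 92.3 of the genes above 0, and Rragd one of 0.968, at percentile 7.49. Per kilobase, Rragc at 2673 normalized counts and Rraga at 2122 were the highest of all 10 members, and Rragd was the lowest of those above 0 at 0.192. Their percentiles per kilobase were 93.4 for Rragc, 91.4 for Rraga and 2.51 for Rragd. A listing at 0 does not prove absence. In a check of 138 genes of ribosomal proteins and related S6 kinases, proteasome subunits and RNA polymerase II, only Rps6ka1, Rpl3l, Rpl10l, Psmb8 and Psma8 were at 0. That check cannot tell how a gene of low level would be listed, and 9061 of all 25239 genes were at 0.

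**Figure D1:**
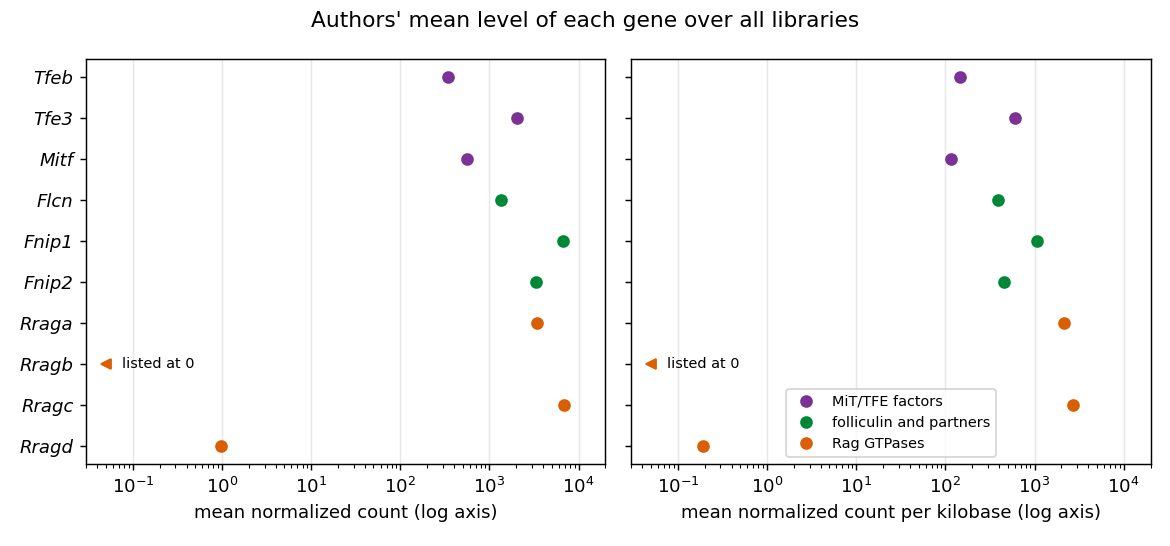
The authors' mean normalized count of each member over libraries of both conditions (left, log axis) and the same per kilobase of the longest coding transcript (right, log axis), with colours for the 3 groups of genes and no error bars because the table has no values of single libraries. Rragc and Rraga lie highest per kilobase, at 2673 and 2122, Rragd lies at 0.192, and the arrow marks Rragb, which is listed at 0.

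From highest to lowest per kilobase the order was Rragc, Rraga, Fnip1, Tfe3, Fnip2, Flcn, Tfeb, Mitf and Rragd. The first 4 and the last kept their places when the coding sequence or the median coding transcript was used as the length. Since no spread between libraries is given, neighbours in this order cannot be called different. Reads shared with other genes touch few of these values. Of all stretches of 50 bases in the longest coding transcript, none occurred in transcripts of another gene for 6 members. The share was 8.84% for Rragc, and at most 0.869% for Fnip2, Rragb and Rragd. How far shared reads alter the level of Rragc was not tested. No such stretch was shared between 2 members, so reads of this length tell Rraga from Rragb and Fnip1 from Fnip2.

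Other genes around this circuit were represented by 37 genes chosen as lists with earlier results of these data known. Beside amino acid sensing and mTORC1, the lists cover Tfec, calcineurin with a lysosomal calcium channel, and a complex related in fold to folliculin. Of the 37 genes, 36 had a level above 0, and the median over all 37 was 1332 normalized counts. The Ragulator complex, which anchors the Rag dimer to the lysosomal membrane, was detected with all 5 subunits, between 553 and 1952 normalized counts. GATOR1, which switches RagA and RagB off, was detected with all 3 subunits, between 306 and 2007. GATOR2, the complex upstream of GATOR1, was detected with all 5, between 623 and 3289. The highest level of all lists, 9085 normalized counts, belonged to Ppp3ca, a catalytic subunit of calcineurin, the phosphatase that acts on TFEB.

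The m6A table placed its only peak on a member in the last exon of Fnip1. The peak covers 100 bases of mm10 at chr11:54515936-54516035 on the plus strand, in exon 18 of 18 of the transcript that spans chr11:54438199-54518235. It lies wholly in the 3′UTR, from 363 to 462 bases after the last coding base, in a 3′UTR of 2662 bases. The stop codon is counted here as part of the 3′UTR. METTL3 and METTL14, which write m6A, act on the motif DRACH, that is A, G or T, then A or G, then A, C, and last A, C or T. Within the peak this motif occurs at a single site, at chr11:54515995-54515999, 422 bases after the last coding base. It is shown with its flanks as the one place in the peak that has the writers' motif, 5′ to 3′ on the transcribed strand, read from the mouse reference GRCm38, with the motif in capitals.
Fnip1 3′UTR, chr11:54515983-54516011: cagaaatctacaAGACCttgatttgtttg

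The window is rich in A and T. The GC content of the whole peak was 28%, against a median of 51% over the 175 single-block peaks of 100 bases, and only 1.43% of these lay lower, ties counted as 0.5. DRACH occurred in 88% of these 175 peaks, at a mean of 1.87 sites, and the Fnip1 peak has 1. Over the entire Fnip1 mRNA of 6255 bases there are 125 such sites, 85 in the coding sequence and 39 in the 3′UTR, or 24.3 and 14.7 per kilobase. The other members have the motif at similar density, from 17.1 sites per kilobase in Tfeb to 22.6 in Rragd, except Rraga with 9.89. The median over all genes above 0 was 20.2.

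**Figure D2:**
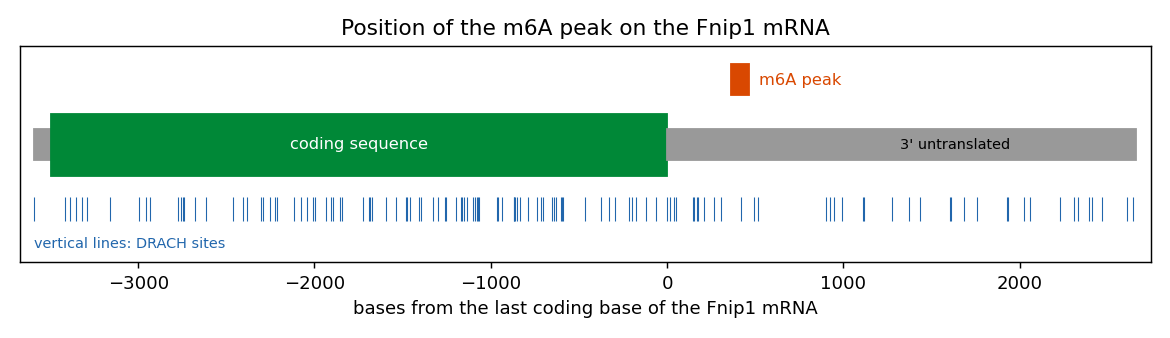
Map of the Fnip1 mRNA in bases from its last coding base, with the coding sequence in green, untranslated parts in grey, the m6A peak in orange and each DRACH site as a blue line. The peak lies 363 to 462 bases after the last coding base and covers 1 of the 39 DRACH sites found in the 3′UTR, the stop codon included.

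In the Fnip1 peak, control cells gave 55 input reads (exact Poisson 95% interval 41.4 to 71.6) and 39 IP reads (27.7 to 53.3), each pooled over 3 libraries. MA-treated cells gave 39 input reads and 119 IP reads (98.6 to 142). IP reads were thus more numerous with MA, and input reads fewer. The share of IP among all reads of the peak was 41.5% in control cells (exact Clopper-Pearson 95% interval 31.4% to 52.1%, 94 reads) and 75.3% in MA-treated cells (67.8% to 81.8%, 158 reads). Both intervals lie apart, but the spread between the 3 libraries of a group is not in them.

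**Figure D3:**
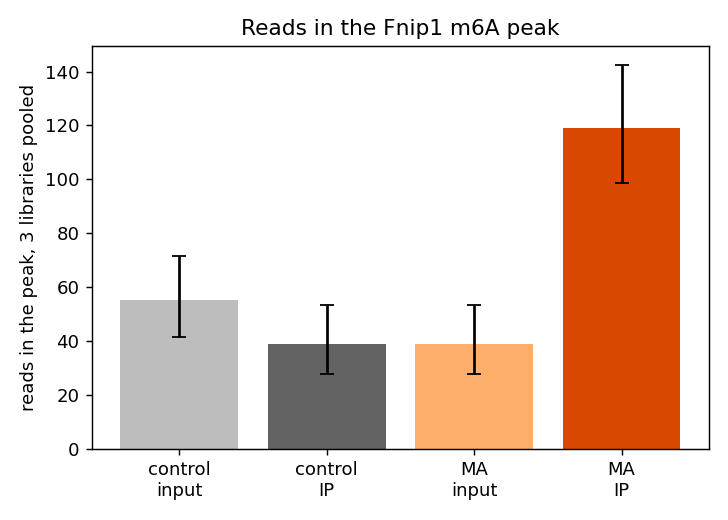
Reads in the Fnip1 m6A peak in each group (vertical axis from 0, 3 libraries pooled per bar), with exact Poisson 95% intervals as error bars. IP reads were 39 in control and 119 in MA-treated cells, while input reads were 55 and 39.

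The typical peak moved in the same direction. Over the 2643 peaks, the median ratio of MA to control reads was 0.724 for input and 1.38 for IP, and the median change of the IP to input ratio was 1.87-fold (0.90 on the log2 scale). The input reads of Fnip1 followed the typical peak, at percentile 47.5, while the ratio for its IP reads was at percentile 95.5. On the log2 scale the IP to input ratio of the Fnip1 peak was -0.49 in control cells, at percentile 15.9 of all peaks, and 1.60 in MA-treated cells, at percentile 86.2. After subtraction of the median change of all peaks, its log2 change from control to MA was 1.18 (95% counting interval 0.40 to 1.97), which is 2.27-fold (1.32-fold to 3.92-fold). The Fnip1 peak was therefore among those more than 1.5-fold higher, a group that held 730 of the 2643 peaks or 27.6%. A further 680 peaks, 25.7%, were more than 1.5-fold lower, and without the subtraction these numbers were 1691 and 204.

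Larger changes than that at Fnip1 were found in 348 peaks, or 13.2% of all. Among the 1334 peaks with a total number of reads within 2-fold of its 252, 15.1% had a larger change and 33.3% were more than 1.5-fold higher. Of the 96 peaks within 5 points of its GC content, 11, or 11.5%, had a larger change. Across 1836 single-block peaks of up to 300 bases, GC content and change had a Pearson's r of -0.02 and a Spearman's rho of -0.02, given as a description because peaks share their libraries. Since the table pools the replicates, a change at Fnip1 beyond the spread between libraries could not be tested.

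**Figure D4:**
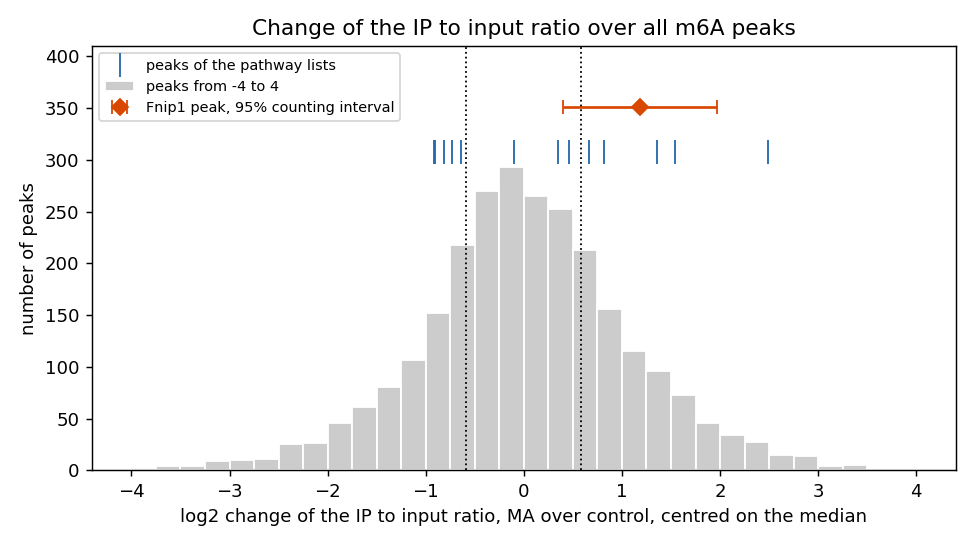
Number of m6A peaks (vertical axis) by the log2 change of their IP to input ratio from control to MA, centred on the median (horizontal axis, bins of 0.25 from -4 to 4, with 7 peaks beyond), and dotted lines at 1.5-fold. The Fnip1 peak at 1.18 (diamond, 95% counting interval) lies in the upper shoulder, with 13.2% of all peaks beyond it, and the centred values of the 13 peaks of the pathway lists (blue marks) lie on both sides.

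The other 9 members had no peak in the table. Over all genes above 0, 2021 of 16178 or 12.5% had at least 1 peak in the table, and 1 of the 10 members is close to this background. Among genes with a level within 2-fold of that of Fnip1, the share was 16.1%. It was 16.2% around the level of Rragc, which has a similar mean count and no listed peak, 18.8% around Rraga, 18.9% around Fnip2, 19.3% around Tfe3 and 20.0% around Flcn. Around Rragd, with under 1 normalized count, the share was 1.53%, so few genes of that level had a listed peak.

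Within the pathway lists, 9 of the 37 genes had a listed peak, with 13 peaks in all, beside 12.5% of all genes above 0. Among genes with a level within 2-fold of that of a list gene, this share ran from 11.5% to 20.1%. Whether the lists differ from this background was not tested. The study had already named C9orf72 and Mcoln1 of these lists for altered m6A in these data. Of these 13 peaks, 5 were more than 1.5-fold higher after centring and 5 more than 1.5-fold lower, beside 27.6% and 25.7% of all peaks, and the median change of the 13 was 0.35 on the log2 scale. Without centring, 8 of the 13 were more than 1.5-fold higher and 0 lower, beside 1691 and 204 of all 2643 peaks. Each lower value below is therefore relative to the median peak. The highest value belonged to C9orf72, a partner of SMCR8 in a complex related in fold to folliculin and FNIP. Its peak in exon 8 of the coding sequence had a log2 change of 2.49 (95% counting interval 1.30 to 3.68) on only 132 reads, with 36 input and 18 IP reads in control and 12 and 66 in MA-treated cells. A second peak of the same gene, in the 3′UTR, had a log2 change of -0.10 (-0.60 to 0.41) relative to the median peak and of 0.81 without centring. Smcr8 itself had a peak in its 3′UTR with a log2 change of -0.91 (-1.52 to -0.29), whose share of IP reads was 56.1% in control and 56.0% in MA-treated cells.

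Mtor, the kinase that the Rag dimer recruits, had a peak in exon 13 with a log2 change of 1.36 (95% counting interval 0.54 to 2.17). Its reads resembled those of Fnip1, with 60 input and 37 IP reads in control and 33 and 99 in MA-treated cells. Mcoln1, the lysosomal calcium channel upstream of calcineurin, had the best-covered peaks of the lists, with 1602 and 2251 reads. The former, which runs from the 5′UTR into the coding sequence, had a log2 change of 0.67 (0.37 to 0.96). The latter, in the coding sequence, had one of 0.81 (0.56 to 1.06). Both peaks of Ppp3cb, which encodes another catalytic subunit of calcineurin, were lower relative to the median peak, at -0.64 (-0.93 to -0.35) and -0.74 (-1.13 to -0.35), whereas without centring the values were 0.26 and 0.17. Their IP reads hardly moved, at 378 and 419 for the former and 222 and 222 for the latter. For Nprl3 of GATOR1 the log2 change was -0.81 with a counting interval of -1.72 to 0.10, which includes 0, and without centring it was 0.09.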

How the data were processed

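Per the labels and the study's methods, 12 libraries (3 input and 3 IP libraries for each of the control and MA conditions) were trimmed with fastp, aligned to mm10 with HISAT2 and quantified with StringTie. Levels are the authors' base mean from DESeq2, a normalized signal that averages counts divided by size factors, taken here to cover the 6 input libraries, which the sources do not state. The counts of reads per m6A peak deposited by the authors come from exomePeak2, with replicates pooled. Tool versions are not given in the sources used here. Fold changes, standard errors, test statistics, p-values and IP to input ratios in both tables are the authors' own comparisons and were not used, nor was the peak score.

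In scripts using pandas 2.3.3, numpy 2.4.6, matplotlib 3.10.9 and scipy 1.17.1 under Python 3.11.15, the log2 ratio of IP to input reads was computed per peak with a pseudocount of 0.5, and its change from control to MA was centred on the median of all peaks. Intervals of 95% used counting error only. They were checked on simulated data that also held counting error only, so the check does not cover the spread between libraries. Peaks past 1.5-fold were counted, and no test was made, since neither table holds values of single libraries. The design's count model could not be applied. Transcripts and coordinates came from GENCODE release M21 on GRCm38 (the assembly of mm10), promoters from RefSeq on GRCm38.p6. All members and, of the pathway lists, each gene with a peak past 1.5-fold were named, except for an item that is not reported here but stays in the counts. Members and lists were chosen with earlier results of these data known. Genes named as examples of levels, and those listed at 0, were named after their values were seen.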

Additional observations from a re-analysis of the deposited data

How the results depend on the processing

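Of 15 alternative values for the Fnip1 peak and for the numbers of all peaks past the fold, 11 stayed within the counting interval or within 1.5 times the main number. The other 4 all concern the scaling between groups. Without centring on the median peak, the log2 change of the Fnip1 peak was 2.09 in place of 1.18, and 1691 peaks were higher and 204 lower in place of 730 and 680. The log2 IP to input ratio of the Fnip1 peak in MA-treated cells was 0.73 relative to the median peak of that group. Scaling by the sum over all peaks gave 1.23 for the Fnip1 change, IP reads alone 1.14, no pseudocount 1.19, and centring on peaks of like GC content, an alternative chosen after seeing the data, 1.04. The direction was the same in all of these. Library totals were not given, so the shift of the median peak cannot be told apart from a difference in depth or IP yield between the groups. No paired analysis was possible because replicates are pooled in the peak reads and in the mean levels, and no replicate could be left out for the same reason. Levels rest on the annotation's lengths and have no error. Of the alternative levels per kilobase, from the coding sequence or the median coding transcript, 16 differed from the main value. That of Tfeb went from 147 to 625 with the median coding transcript, and that of Rragc from 2673 to 5805 with the coding sequence. Levels of Rraga and Rragc did not change with the median coding transcript. Peaks of few reads are limited most, with a median counting standard error of 0.40 on the log2 scale over all peaks.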

Other observations

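MiT/TFE factors bind the E-box CACGTG, which reads the same on both strands. In RefSeq promoters of 300 bases (250 before and 50 after the start, GRCm38.p6), available for all 10 members as 15 sequences, CACGTG occurred in 1 promoter each of Fnip1, Rragc and Rragb. The site lay 75 bases before the start in Fnip1 and 112 bases before it in Rragc, and Rragb held 3 sites. Over all 32851 promoters, 7.15% held CACGTG. The longer form TCACGTGA, which contains it, was in none of the 15 promoters and in 0.974% of all. Of these 3 genes, Rragc stood at 2673 and Fnip1 at 1054 normalized counts per kilobase, and Rragb was listed at 0. Rraga, whose promoter held no CACGTG, stood at 2122 per kilobase. The deposited values used here do not bear on binding at these sites.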
